A study of Mus musculus with 686 samples.

Results

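Gonadal fat (GAT), the visceral white fat depot beside the ovaries, was profiled by small RNA sequencing in female mice that flew to the International Space Station and came back alive. The libraries were chosen by their labels, as GAT of the live animal return (LAR) in each of the 3 arms, and numbered 30 of the 686 libraries and 13 tissues of the series. The series compared flight mice (FL) with habitat ground controls (HGC), kept in flight habitats with the temperature, humidity and carbon dioxide recorded aboard, and with vivarium ground controls (VGC), kept in standard cages. All 30 mice were BALB/cAnNTac females, 5 of 3 months and 5 of 8 months in each arm, with no transgene or drug treatment beyond the anesthesia at dissection (gas per the labels, ketamine and xylazine per the study's methods). FL mice spent 39.5 days on the station and were dissected 2 to 4 days after splashdown, following functional assays, and their controls were transported and dissected alongside them. FL therefore stands for launch, orbit, reentry and days of recovery together, and these cannot be told apart within LAR. According to the study's methods, mold was found on food bars, FL and HGC mice alike were kept at doubled cage density before the return, and rough seas at recovery were not copied in the HGC arm. The rest of the experiment, TERM, consisted of mice killed on the station, or on Earth as their controls, and frozen whole, and its GAT is used below only in fits of LAR and TERM together.

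White fat stores triglyceride in adipocytes and holds stromal progenitors, vessels and immune cells besides. MicroRNAs (miRNAs) are short RNAs that repress messenger RNAs through their seed, bases 2 to 8 of the mature strand, while tRNAs, rRNAs, small nuclear and small nucleolar RNAs (snRNAs, snoRNAs) enter such libraries mainly as fragments of longer molecules, and tRNA is cut by endonucleases under stress. miR-196a and miR-196b lie in the Hox gene clusters and carry a positional identity, so they are high in tissues of the posterior body, and miR-196a promotes the formation of brown-like adipocytes in white fat. Bulk fat was measured, so fewer cells of a type and less RNA per cell cannot be told apart in any value below.

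The mature sequences of the miRNAs on which the results turn are shown with the seed in capitals (RefSeq, GRCm38.p6, whereas the counts were made on GRCm39). The first pair marks the tissue, the next pair comes from neighbouring positions of the X chromosome, and the rest had the smallest p-values or are described because of a library that stood apart.
miR-196a-5p: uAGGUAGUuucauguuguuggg
miR-196b-5p: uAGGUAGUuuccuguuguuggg
miR-322-5p: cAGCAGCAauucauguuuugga
miR-503-5p: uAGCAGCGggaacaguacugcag
miR-135a-5p: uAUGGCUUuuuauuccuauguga
miR-205-5p: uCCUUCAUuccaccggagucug
miR-335-5p: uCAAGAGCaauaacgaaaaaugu
miR-223-3p: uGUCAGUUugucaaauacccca
miR-146a-5p: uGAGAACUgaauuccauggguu
miR-3473b: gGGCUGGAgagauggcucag
miR-3473e: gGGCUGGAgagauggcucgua
miR-196a-5p is read from Mir196a-1 at chr11:96265187-96265208 and Mir196a-2 at chr15:102973365-102973386, both on the plus strand, and miR-196b-5p from Mir196b at chr6:52230129-52230150 on the minus strand. They share the seed AGGUAGU, which no other mature mouse miRNA in the RefSeq table had. miR-322-5p (chrX:53054306-53054327) and miR-503-5p (chrX:53054027-53054049), both on the minus strand, differ in the last seed base. The miR-322 seed AGCAGCA was shared by 10 mature miRNAs of the table, of which 6 were tested here, the miR-15, miR-16, miR-195 and miR-497 group of cell cycle repressors among them. miR-3473b and miR-3473e share the seed GGCUGGA and nearly all of their length, so their counts could hold the same reads. Of 14 names looked up 13 had a sequence.

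Depth, as the total over the 7 RNA classes counted (miRNA, tRNA, rRNA, snRNA, snoRNA, piRNA and long noncoding RNA), ranged from 24.4 to 130 M counts (1 M being 1000000) in FL, from 59.6 to 167 M in HGC and from 22.3 to 155 M in VGC. FL libraries held on average 52.5 M fewer counts than HGC libraries (two-sided permutation test with 100000 resamples, adjusted p = 0.0158), while their miRNA counts had a median of 2.82 M against 1.76 M in HGC and 1.91 M in VGC. These totals give each identical gene copy the same count, which multiplied the tRNA total 5.28-fold and the rRNA total 3.73-fold. They are not numbers of reads, and a difference in reads sequenced was not tested. Over 730 miRNAs, 26 of the 30 libraries were closest to fat among the tissue profiles of the series. The other 4 were nearest to another organ: FL mouse 4 to kidney, HGC mouse 14 to thymus, VGC mouse 1 to pancreas and VGC mouse 4 to liver. All 4 came from a set of 11 library pools that were left out as an alternative, and those pools held 7 of the 30 libraries, leaving 8 FL, 7 HGC and 8 VGC without them. Closest to GAT itself were 9 FL, 9 HGC and 7 VGC libraries, while 8 VGC libraries were closest to some fat depot. The VGC library nearest to another fat depot was kept when the pools or the 4 libraries were left out. FL mouse 2, in a pool that was kept, correlated at only 0.343 with the median GAT profile of the series, which was centred over tissues and included this library. It carried miR-449a-5p (574 CPM, counts per 1000000 miRNA counts), miR-202-5p (254 CPM) and miR-200b-3p (2871 CPM), miRNAs known from ciliated oviduct, ovary and epithelium. HGC mouse 16 correlated with that profile at 0.457 and was the highest HGC library in many features of several classes. For the main results that rest on these libraries, values without them are also given.

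The tissue's markers were present at the level of this depot. The median of miR-196a-5p over the 30 GAT libraries was 3013 CPM, against 227 CPM in mesenteric, 74.0 CPM in subcutaneous and 4.38 CPM in brown fat of LAR, and 1.43 CPM in liver, although kidney reached 2616 CPM and the upper quartile of subcutaneous fat (1893 CPM) lay above the lower quartile of GAT (1552 CPM), so this marker alone does not part the depot from kidney or from every subcutaneous library. Among FL mice miR-196a-5p ran from 1150 CPM (mouse 2) through a median of 4552 to 5306 CPM, among HGC mice from 1057 through 2779 to 7391 CPM, and among VGC mice from 1.97 (mouse 4) through 1569 to 6057 CPM. The lowest VGC values came from the libraries nearest to liver and pancreas, and the 3 arms overlapped. miR-196b-5p ran from 2439 through 4235 to 9634 CPM in FL, from 1550 through 2457 to 4485 CPM in HGC and from 10.2 through 1526 to 3593 CPM in VGC. The highest FL value of miR-196b-5p was mouse 4, the library nearest to kidney, where this miRNA is abundant (median 6468 CPM). Within the miRNA class neither marker passed the test in FL vs. HGC (edgeR, miR-196a-5p log2 fold change 0.66 ± 0.59 SE, adjusted p = 0.803, and miR-196b-5p 1.10 ± 0.49, adjusted p = 0.395) or in FL vs. VGC (1.14 ± 0.59, adjusted p = 0.377, and 1.56 ± 0.50, adjusted p = 0.0643).

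**Figure D1:**
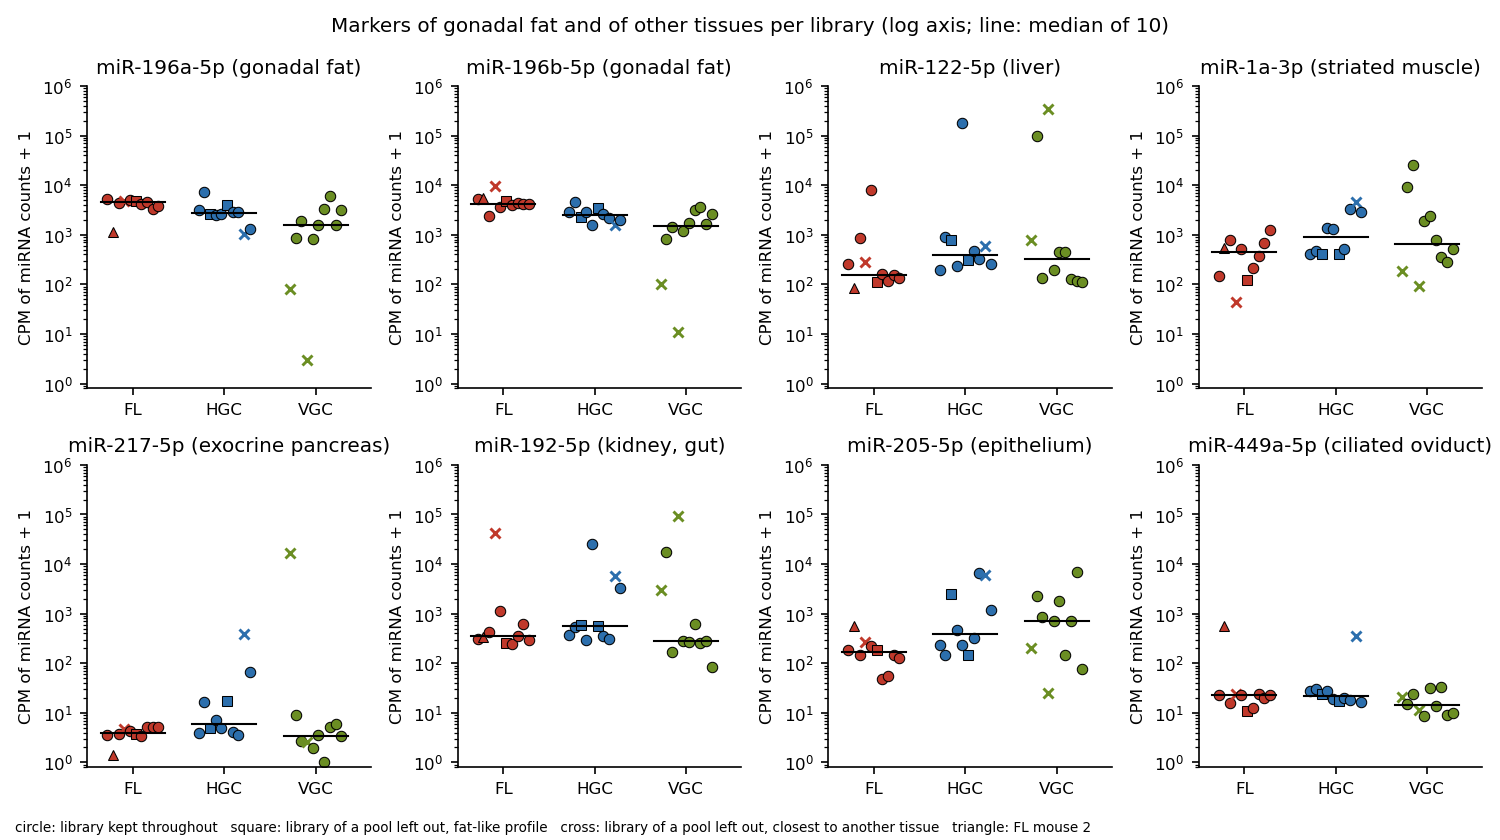
Levels of the gonadal fat markers miR-196a-5p and miR-196b-5p and of a marker each of liver, muscle, pancreas, kidney and gut, epithelium and oviduct in the 30 GAT libraries of live return, as CPM of miRNA counts plus 1 on a log axis, by arm, with a line at each median and with symbols for the libraries of the left-out pools and for FL mouse 2. VGC mouse 4 lies lowest for both fat markers (1.97 and 10.2 CPM) and highest for the liver miRNA miR-122-5p (350290 CPM).

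The composition of the small RNA differed between flight and habitat-matched fat. tRNA, the largest class, took from 27.4% through a median of 59.7% to 81.6% of a library's counts in FL, from 48.0% through 77.6% to 87.7% in HGC, and from 8.39% through 70.5% to 84.2% in VGC. The arms overlapped, with 3 FL libraries below every HGC library. The FL mean of 55.3% ± 16.4 (SD, n = 10) lay 21.6 percentage points under the HGC mean of 76.9% ± 11.1 (two-sided permutation test of 100000 resamples, adjusted over 7 classes and 3 comparisons, adjusted p = 0.0206). The VGC mean of 62.5% ± 22.6 was not told apart from FL (adjusted p = 0.502, permutation test). Permutation p-values, here and below, measure the spread between single mice of the arms compared. Those of edgeR rest on a spread estimated over all libraries of a fit. Per the study's methods several mice shared a habitat or cage, and differences between habitats or cages were not estimated.

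Most other classes took a larger share in FL than in HGC. miRNA made up from 1.69% through 5.32% to 10.9% of the counts in FL, from 0.936% through 1.83% to 6.97% in HGC, and from 0.696% through 2.38% to 13.7% in VGC. FL mice lay high in this order, with 9 of 10 above the HGC mean, and the highest HGC and VGC values were the libraries nearest to thymus and liver. Mean miRNA shares were 5.59% ± 2.39 in FL and 2.28% ± 1.81 in HGC (difference 3.31 points, permutation test, adjusted p = 0.0206) and 3.60% ± 3.77 in VGC (adjusted p = 0.349, permutation test). rRNA rose from 5.99% ± 3.00 in HGC to 11.7% ± 3.44 in FL (adjusted p = 0.0130, permutation test), snRNA from 3.42% ± 2.23 to 7.83% ± 4.48 (0.0310) and snoRNA from 4.51% ± 2.98 to 10.8% ± 8.06 (0.0412). The snoRNA mean of FL rested in part on mouse 2, at 31.7% against 15.3% in the next FL library, and without this mouse and the 4 libraries nearest to another organ the means were 7.56% and 3.70% (difference 3.86 points against 6.24, exact permutation test, adjusted p = 0.0121). The lncRNA share was 5.26% ± 2.36 against 3.25% ± 2.00 (0.198) and the piRNA share 3.55% ± 0.84 against 3.64% ± 0.79 (0.860), neither past the threshold of 0.05.

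Without the libraries of the 11 pools, the FL and HGC means were 57.4% and 80.1% for tRNA (adjusted p = 0.0109, permutation test) and 5.02% and 1.74% for miRNA (0.0109), and the miRNA share then also exceeded that of VGC, at 2.71% (0.0340). The study's sample list assigns the libraries to 7 plates, without saying of which step. On all 6 plates that held both arms, tRNA was lower in FL than in HGC, by 5.33 to 53.1 points, and miRNA was higher, by 0.554 to 5.05 points. Against VGC, tRNA was lower on 3 of 6 plates and miRNA higher on 5 of 6. Within each age alone (5 mice against 5) no class passed. Since the deposited tables give each identical gene copy the same count, which multiplied the tRNA total 5.28-fold and the rRNA total 3.73-fold, the shares were also taken with identical rows counted once, giving tRNA means of 27.3% in FL and 48.8% in HGC (adjusted p = 0.0235, permutation test), miRNA means of 13.3% and 6.78% (0.0235), and adjusted p-values for rRNA, snRNA and snoRNA between 0.055 and 0.061. When tRNA was left out of the denominator, the class past the threshold was piRNA, at 9.05% ± 3.68 of the remaining counts in FL and 18.0% ± 6.20 in HGC (adjusted p = 0.0302, permutation test), while miRNA, at 12.4% and 9.22%, missed the threshold (0.152). The piRNA difference missed it too on the log2 scale (0.0961) and with identical rows counted once (0.0535).

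**Figure D2:**
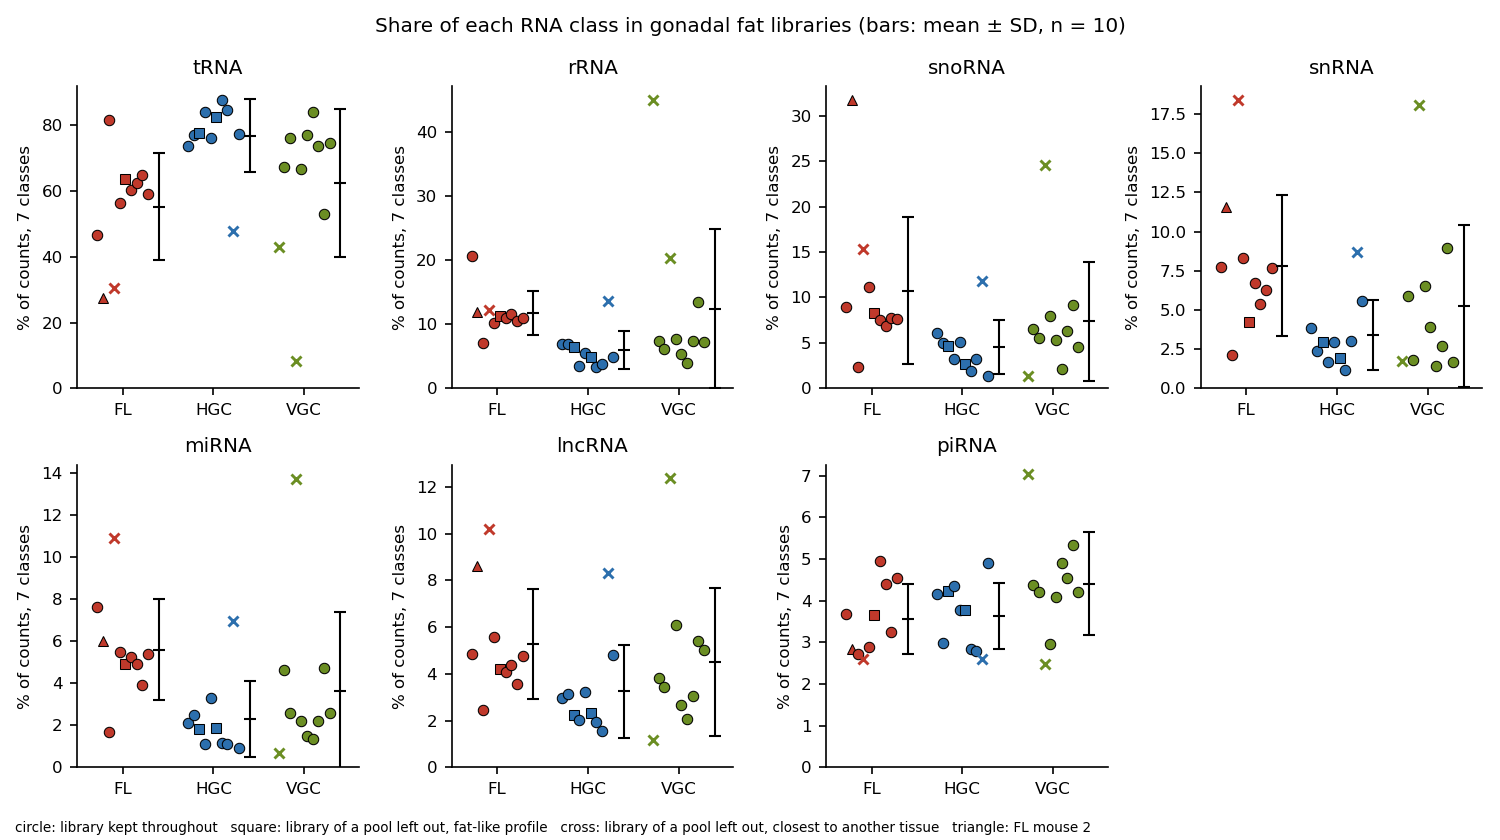
Share of each library's counts taken by each of the 7 RNA classes (percent), for FL, HGC and VGC mice, with points for libraries and bars for mean and SD. tRNA sits lower in FL (mean 55.3%) than in HGC (76.9%), and miRNA, rRNA, snRNA and snoRNA sit higher.

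Since the tRNA share differed between arms, features were tested on separate scales: within the class (edgeR quasi-likelihood test with TMM normalization inside the class) and against the total of all 7 classes. A feature needed at least 5 counts in 10 of the 30 libraries, and counted as called when its p-value, adjusted over the class by the method of Benjamini and Hochberg, was below 0.05. tRNA genes were summed by anticodon.

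Among tRNAs the reads of a few isoacceptors dominated. Glu-CTC alone held a median of 60.4% of tRNA counts in FL, 56.3% in HGC and 53.6% in VGC, followed by Val-CAC with 13.8%, 18.7% and 13.7%. Neither passed the test in FL vs. HGC (Glu-CTC log2 fold change -0.62 ± 0.40, adjusted p = 0.195, Val-CAC -0.87, adjusted p = 0.0736, edgeR). Of 51 anticodons, 16 (31.4%) were called in FL vs. HGC within the class, 11 higher (21.6%) and 5 lower (9.8%) in FL, and those 16 held 14.1% of tRNA counts. None passed in FL vs. VGC, where edgeR and DESeq2 called 0 and 0, with 10 and 13 at an unadjusted p under 0.05, but edgeR called 6 without the libraries of the 11 pools and 10 without the 4 libraries nearest to another organ. The comparisons share the FL mice.

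Lys-TTT, which reads AAA and AAG codons, had the smallest p. Its part of tRNA counts ran from 0.155% through 0.298% to 0.734% in FL, from 0.279% through 0.421% to 1.42% in HGC, and from 0.176% through 0.431% to 3.93% in VGC. FL mice filled the low end of the range, the highest FL value being mouse 4, and the arms overlapped. Its log2 fold change in FL vs. HGC was -1.36 ± 0.29 (edgeR, adjusted p = 0.00180). Cys-GCA, which decodes cysteine, had a log2 fold change of -1.28 ± 0.37 with TMM (edgeR, adjusted p = 0.0127) and of -0.49 on the tRNA total. Its median part of tRNA counts was 2.59% in HGC, 1.65% in FL and 2.25% in VGC. The others called lower were Glu-TTC (-0.75 ± 0.20, adjusted p = 0.00876), His-GTG (-0.88, adjusted p = 0.0216) and Gly-GCC (-0.79 ± 0.30, adjusted p = 0.0405), the last 2 with medians of 0.242% and 6.81% in FL and 0.218% and 8.16% in HGC. The medians of Glu-TTC (0.358% in FL, 0.320% in HGC) and His-GTG had the opposite order to their fitted changes, with HGC mouse 16 the highest HGC library for each, at 0.887% and 1.28%. Without this library alone Glu-TTC was still called (-0.64, edgeR, adjusted p = 0.0253) and His-GTG was not (-0.59, 0.0518).

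The anticodons called higher were rare ones. Leu-TAA stood at a median of 0.00175% of tRNA counts in FL and 0.000507% in HGC (log2 fold change 1.22 ± 0.30, adjusted p = 0.00586), and the annotated suppressor tRNA Sup-TTA, with its few counts, at 1.96 (adjusted p = 0.00876). Serine tRNAs contributed Ser-GGA (1.24, adjusted p = 0.00586) and Ser-CGA (1.01, adjusted p = 0.0127), and proline tRNAs Pro-TGG and Pro-AGG. Pro-TGG ran from 0.0316% through 0.124% to 0.261% in FL, from 0.0166% through 0.0425% to 0.0758% in HGC, and had a median of 0.0448% in VGC. Of the 10 FL mice 7 exceeded the highest HGC mouse, and the fold change was 0.82 ± 0.29 (adjusted p = 0.0308). Tyr-GTA (1.07, adjusted p = 0.0260), Arg-ACG (1.80, 0.0282), Ala-TGC (0.80, 0.0282), Pro-AGG (0.75, 0.0350), Asn-GTT (0.89, 0.0405) and Trp-CCA (0.71, 0.0415) completed the group. The Arg-ACG value rested on FL mouse 4: without this library alone the fold change was 0.66 (edgeR, adjusted p = 0.276), and without the 11 pools 0.96 (0.101).

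The 11 higher anticodons kept a positive fold change under each of 6 scalings tried, and 10 of them were called when the tRNA total alone set the scale. Of the 5 lower ones 4 kept a negative sign under each, but 0 were called on the class total, where Lys-TTT stood at -0.58, Cys-GCA at -0.49, His-GTG at -0.18, Glu-TTC at -0.02 and Gly-GCC at 0.11. The tRNA total gave every tested anticodon a higher fold change than TMM, called or not. Ala-AGC, not called, stood at -0.12 with TMM and at 0.57 on this scale. Signs kept or calls lost on it therefore do not show that the lower ones depend more on the scaling. The split of higher to lower calls was 11 to 5 with TMM, 14 to 13 with DESeq2, 17 to 0 on class totals, and 13 to 1 against all classes. Without the 11 pools 14 of the 16 were called again, in the same direction, Glu-TTC (adjusted p = 0.0556) and Arg-ACG (FL mouse 4 being high at 0.497%) being the exceptions. Leaving out each library in turn gave 7 (without HGC mouse 13) to 23 calls, and Cys-GCA, Glu-TTC, Leu-TAA, Lys-TTT, Ser-CGA, Ser-GGA and Sup-TTA were called in each of the 30 runs.

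**Figure D3:**
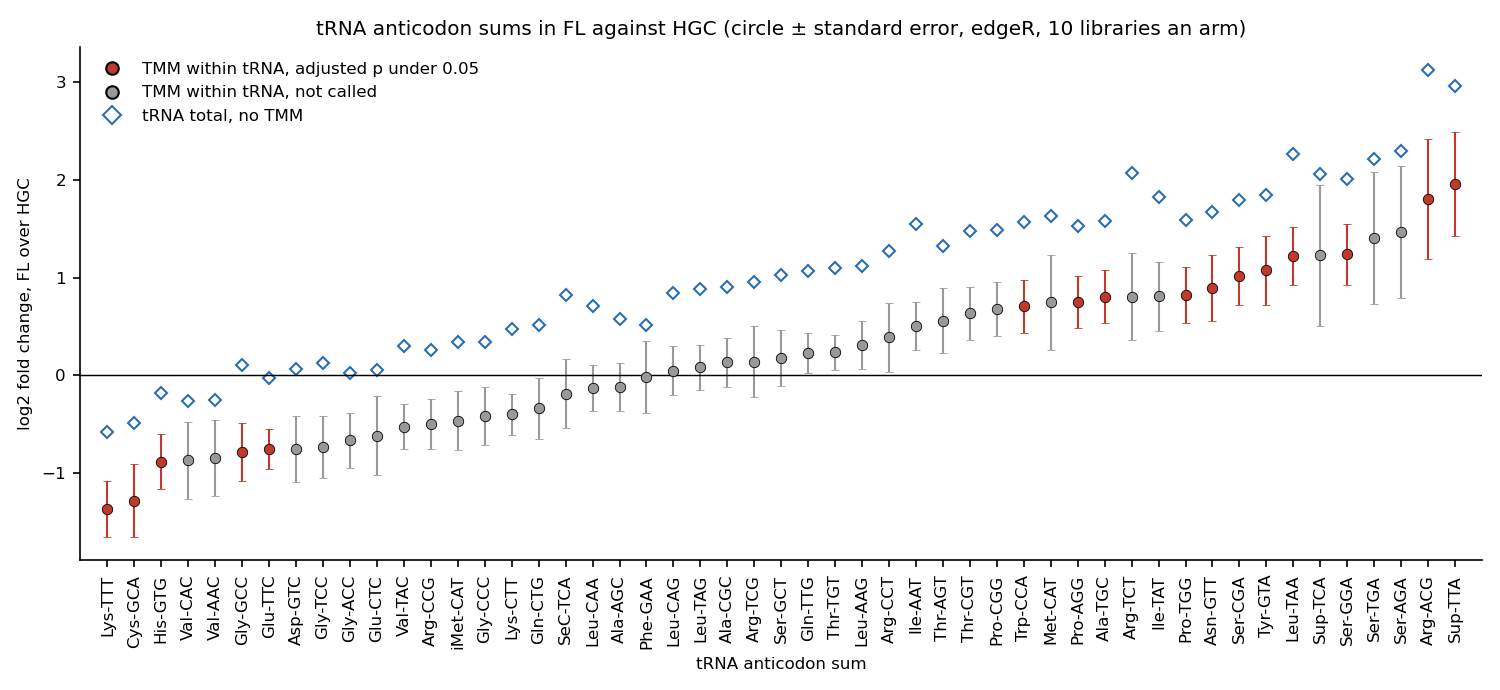
Log2 fold change of the tRNA anticodon sums in FL vs. HGC within the tRNA class, with standard errors, for the anticodons tested, those called at an adjusted p under 0.05 marked. Diamonds give the value with the tRNA total as the scale. Lys-TTT (-1.36) and Cys-GCA (-1.28) lie lowest among the called ones and Sup-TTA (1.96) and Arg-ACG (1.80, or 0.66 without FL mouse 4) highest.

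Within the miRNA class few miRNAs were called between FL and HGC fat. Of 586 miRNAs, 0 were called in FL vs. HGC by edgeR (0% background), with 64 at an unadjusted p under 0.05, and DESeq2 called 4, all lower in FL. On simulated counts only 16.4% of miRNAs changed 2-fold were called, so differences of that size could be missed. A fit that included the TERM libraries called 11 of 666 for FL vs. HGC in LAR (1.65%). The 10 most abundant miRNAs held 54.8% of miRNA counts, led by miR-378a-3p (10.7%), let-7c-5p (10.5%) and let-7b-5p (8.33%). miR-378a-3p, encoded in an intron of the metabolic coactivator gene Ppargc1b, ran from 1.35% (mouse 2) through 10.0% to 33.9% of miRNA counts in FL, from 3.67% through 8.24% to 11.8% in HGC and from 2.04% through 7.83% to 33.2% in VGC. FL mice spread wider than HGC mice and reached higher, and the difference was not called (log2 fold change 1.17 ± 0.46, adjusted p = 0.308). let-7c-5p, of the family that restrains growth factor signalling, had a median of 10.5% in FL and 10.1% in HGC (0.19).

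The miRNAs with the smallest p-values in FL vs. HGC, none called, included miR-3473b at -2.33 ± 0.62 (adjusted p = 0.134), miR-205-5p at -3.01 ± 0.83 (0.134), miR-322-5p at 1.02 ± 0.32 (0.25) and miR-223-3p at -1.12 ± 0.36 (0.256). miR-3473b ran from 165 through 389 to 1143 CPM in FL and from 202 through 1330 to 17932 CPM in HGC, where mouse 16 was highest. Without HGC mouse 16 its fold change was -1.10 (adjusted p = 0.473). miR-223-3p, the myeloid miRNA shown above, ran from 292 through 785 to 1471 CPM in FL, from 738 through 1338 to 8113 CPM in HGC (mouse 16 again) and from 499.5 through 920.5 to 1853 CPM in VGC. FL medians lay below HGC medians and the ranges overlapped. Without HGC mouse 16 the fold change of miR-223-3p was -0.49 (adjusted p = 0.649). miR-2137, at -3.35, rested on HGC mouse 16 (3253 CPM against 63.9 CPM in the next HGC library): without it the fold change was 0.04. When the 4 libraries nearest to another tissue and FL mouse 2 were left out, 8 miRNAs were called, all lower in FL: miR-141, miR-146b, miR-200a, miR-200b, miR-200c, miR-429, miR-3473b and miR-3473e. When HGC mouse 16 was left out as well, 0 of 560 were called (71 at an unadjusted p under 0.05), with miR-200c-3p at -2.29, miR-200a-3p at -2.72 (both with an adjusted p of 0.127) and miR-3473b at -1.03 (0.214). With VGC mouse 3 left out in place of HGC mouse 16 the count was also 0 (91 at an unadjusted p under 0.05). miR-200 family members and miR-141 mark epithelium. The median of the summed epithelial markers over all libraries was 438 CPM in FL, 944 CPM in HGC and 2092 CPM in VGC, with a range of 186 to 42173 CPM in FL. The fitted changes of the 6 epithelial markers in FL vs. HGC ran the other way with all libraries, 5 of 6 being above 0 at a median of 1.11, and had a median of -2.85 without the 4 libraries and FL mouse 2. The part of epithelium in this result was not tested.

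Against the total of all classes the same libraries gave 160 called miRNAs of 586 (27.3%), 158 higher in FL (27%) and 2 lower (0.341%), which held 50.4% of miRNA counts. The whole class moved with its share: the median log2 fold change over all miRNAs was 1.18 on this scale and 0.01 within the class. Changes are therefore read beside that shift. miR-378a-3p rose by 2.30 ± 0.63 (adjusted p = 0.0261), miR-196b-5p by 2.51 ± 0.61 (0.0261), miR-196a-5p by 1.90 ± 0.65 (0.0340), miR-193a-3p, linked to brown fat, by 2.13 (0.0270), and mesenchymal miR-214-3p by 2.19 (0.0269). let-7c-5p (1.25 ± 0.40, adjusted p = 0.0297), let-7b-5p (1.15, 0.0343), endothelial miR-126a-3p (1.18, 0.0463) and miR-103-3p (1.43, 0.0323) moved by about as much as the class. miR-223-3p stood at 0.31, under the class median. Without the 11 pools 149 of the 160 were called again with the same sign, among 359 calls, and without the 4 libraries nearest to another organ there were 408 calls. With identical rows entering the library total once, 20 miRNAs were called on this scale.

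**Figure D4:**
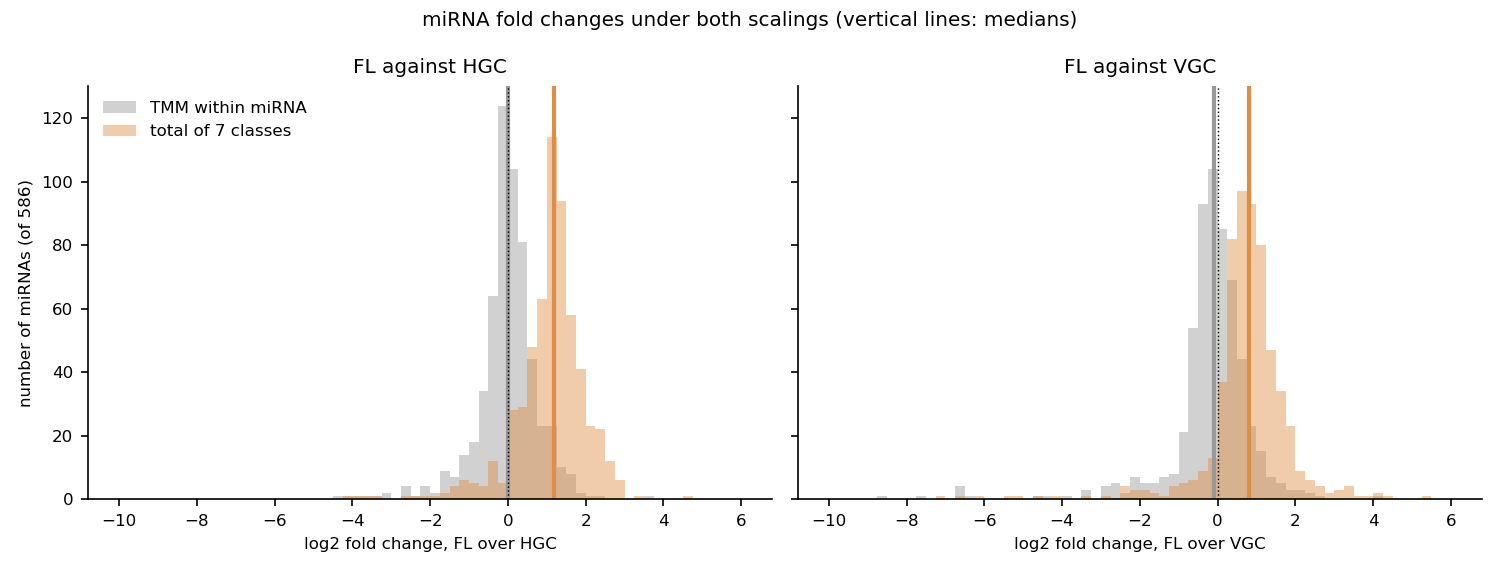
Log2 fold changes of the 586 miRNAs in FL vs. HGC, and in FL vs. VGC, as histograms of the number of miRNAs, scaled within the miRNA class (grey) and to the total of 7 classes (orange), with vertical lines at the medians. In FL vs. HGC the median lies at 0.01 within the class and at 1.18 against all classes, and in FL vs. VGC at 0.80 against all classes.

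The named groups of miRNAs had 0 members called within the class in FL vs. HGC in each of the 24 lists, although their medians were not all near that of the class (0.01), running from -4.04 for liver markers to 1.39 for ovary and oviduct markers. Counts of members called on the all-class scale below stand beside 27.3% of all 586 miRNAs (27% higher). let-7 and miR-98 had 9 of 9 members above 0, with a median of 0.19 within the class and 1.25 against all classes (4 called higher). The thermogenic miR-193, miR-365 and miR-378 had 4 of 4 above 0, with medians of 0.62 and 1.85 (2 called). The mesenchymal miR-199 and miR-214 had medians of 0.32 and 1.75 (4 of 4 called), and the collagen-targeting miR-29 family 0.43 and 1.84 (2 of 3 called). In the mesenchymal list miR-199a-3p and miR-199b-3p could hold the same reads, so its members may not be separate calls. Groups with a median below that of the class (1.18) on the all-class scale included the inflammation list of miR-21, miR-146 and miR-155 (medians -0.72 and 0.39, 0 of 4 called), the miR-17-92 family of proliferating cells (-0.28 and 0.73, 0 of 12 tested members) and the regulators of adipocyte differentiation (-0.11 and 1.17, 1 of 9).

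Some markers of other tissues were called lower in FL than in VGC, beside 3.75% of all miRNAs. The striated muscle list had 0 of 5 tested members above 0 in FL vs. HGC (median -1.39) and in FL vs. VGC (median -2.67, 2 called lower), and its summed level ran from 239 through 5610 to 29318 CPM in FL, from 4214 through 12643 to 84947 CPM in HGC and from 325 through 10385 to 350843 CPM in VGC. Liver markers ran from 85.7 through 161 to 8152 CPM in FL and to 185877 and 358661 CPM at the top of HGC and VGC. HGC mouse 5 held 183492 CPM of the liver miRNA miR-122-5p, VGC mouse 4 held 350290 CPM and VGC mouse 2 held 96767 CPM. HGC mouse 5 and VGC mouse 2 were closest to fat and outside the left-out pools. Both therefore stayed in when the pools, or the libraries nearest to another organ, were left out, so those settings did not remove all libraries rich in miR-122-5p. Pancreas markers reached 93623 CPM in VGC (mouse 1), with a VGC median of 36.7 CPM. The part of muscle, liver and pancreas in the results was not tested.

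In FL vs. VGC within the class, 30 of 586 miRNAs were called (5.12%), 8 higher (1.37%) and 22 lower (3.75%) in FL, holding 5.86% of miRNA counts. Many of the lower ones were markers of another organ in a single VGC library. miR-217-5p, a pancreas miRNA, had a fold change of -8.58 ± 1.93 (edgeR, adjusted p = 0.0231) with 16550 CPM in VGC mouse 1 and 8.15 CPM in the next library, and stood at -0.08 without the 4 libraries nearest to another tissue. miR-216a-5p went from -7.57 to 0.48 and miR-142a-3p, of blood cells, from -2.39 to -0.81. Others rested on FL mouse 2. miR-135a-5p ran from 2.55 through 9.68 to 1570 CPM in FL (next highest 26.0 CPM) and from 1.31 through 7.37 to 25.1 CPM in VGC, giving 4.03 ± 0.97 (adjusted p = 0.0231) with this library and -0.10 without it and the 4 others. miR-503-5p went likewise from 2.26 ± 0.56 (0.0231) to 0.46 (0.345), its FL values being 12.5, 35.4 and 826 CPM at the lowest, median and highest. The pair miR-34c-5p (2.51, adjusted p = 0.0435) and miR-449a-5p, of multiciliated cells, was also highest in FL mouse 2, at 738 and 574 CPM.

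The count in FL vs. VGC fell when libraries that stood apart were left out, to 6 without the 4 libraries (all 6 among the 30), 14 without the 4 libraries and FL mouse 2, and 0 without these and VGC mouse 3 (86 at an unadjusted p under 0.05). Leaving out most of the FL mice singly also lowered it by over 1.5 times, as listed with the processing. It was 0 as well with plate as a term, miR-322-5p and miR-335-5p included, and fell with age as a term, voom or a Wilcoxon test. miR-322-5p, from the cluster shown above with miR-503, ran from 1012 through 2008 to 7783 CPM in FL, from 838 through 1213 to 2777 CPM in HGC and from 234 through 977 to 1778 CPM in VGC. Its FL median exceeded the highest VGC value, and the lowest FL values overlapped VGC. The fold change was 1.49 ± 0.32 (edgeR, adjusted p = 0.0231), 1.08 (0.0412) without the 4 libraries and FL mouse 2, and past the threshold no longer without the 11 pools (0.0744) or without the 5 libraries and VGC mouse 3 (0.97, adjusted p = 0.122). miR-335-5p, encoded in the imprinted gene Mest, ran from 10.3 through 19.7 to 38.6 CPM in FL, from 15.0 through 28.8 to 64.1 CPM in HGC and from 23.2 through 43.0 to 64.0 CPM in VGC. FL was the lowest arm and VGC the highest, with overlapping ranges, and the fold change in FL vs. VGC was -1.16 ± 0.29 (0.0231), or -1.05 (0.0482) without the 4 libraries and FL mouse 2. Without VGC mouse 3 besides, it was -1.03 (adjusted p = 0.122).

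miR-205-5p, of basal epithelium, ran from 46.7 through 164 to 558 CPM in FL, from 146 through 393 to 6656 CPM in HGC and from 23.6 through 717 to 6850 CPM in VGC. FL lay low against both controls, and the fold change in FL vs. VGC was -2.76 ± 0.82 (edgeR, adjusted p = 0.0435), or -3.49 (0.0385) without the 4 libraries and FL mouse 2 and -3.53 (0.0868) without VGC mouse 3 as well. The muscle miRNA miR-1a-3p ran from 42.3 through 442 to 1235 CPM in FL, from 402 through 911 to 4546 CPM in HGC and from 92.5 through 652 to 25230 CPM in VGC, with VGC mouse 3 highest. It stood at -3.47 ± 0.89 (0.0231) in FL vs. VGC and at -3.63 (0.0385) without the 5 libraries, beside miR-133a-3p at -3.27 ± 0.92 (0.0352). Both calls rested on VGC mouse 3: without it alone miR-1a-3p stood at -1.86 (adjusted p = 0.177) and miR-133a-3p at -1.75 (0.286). miR-146a-5p, which dampens inflammatory signalling, ran from 283 through 479 to 1105 CPM in FL, from 534 through 886 to 2032 CPM in HGC and from 305 through 744 to 15270 CPM in VGC. Its fold change of -1.85 ± 0.53 in FL vs. VGC (0.0370) became -1.10 without the 4 libraries. Without the 11 pools 0 of the 30 miRNAs were called in FL vs. VGC. Against all classes 43 miRNAs were called in FL vs. VGC (7.34%), 39 higher (6.66%) and 4 lower (0.683%), around a class median of 0.80, and 30 of them were called again without the pools.

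**Figure D5:**
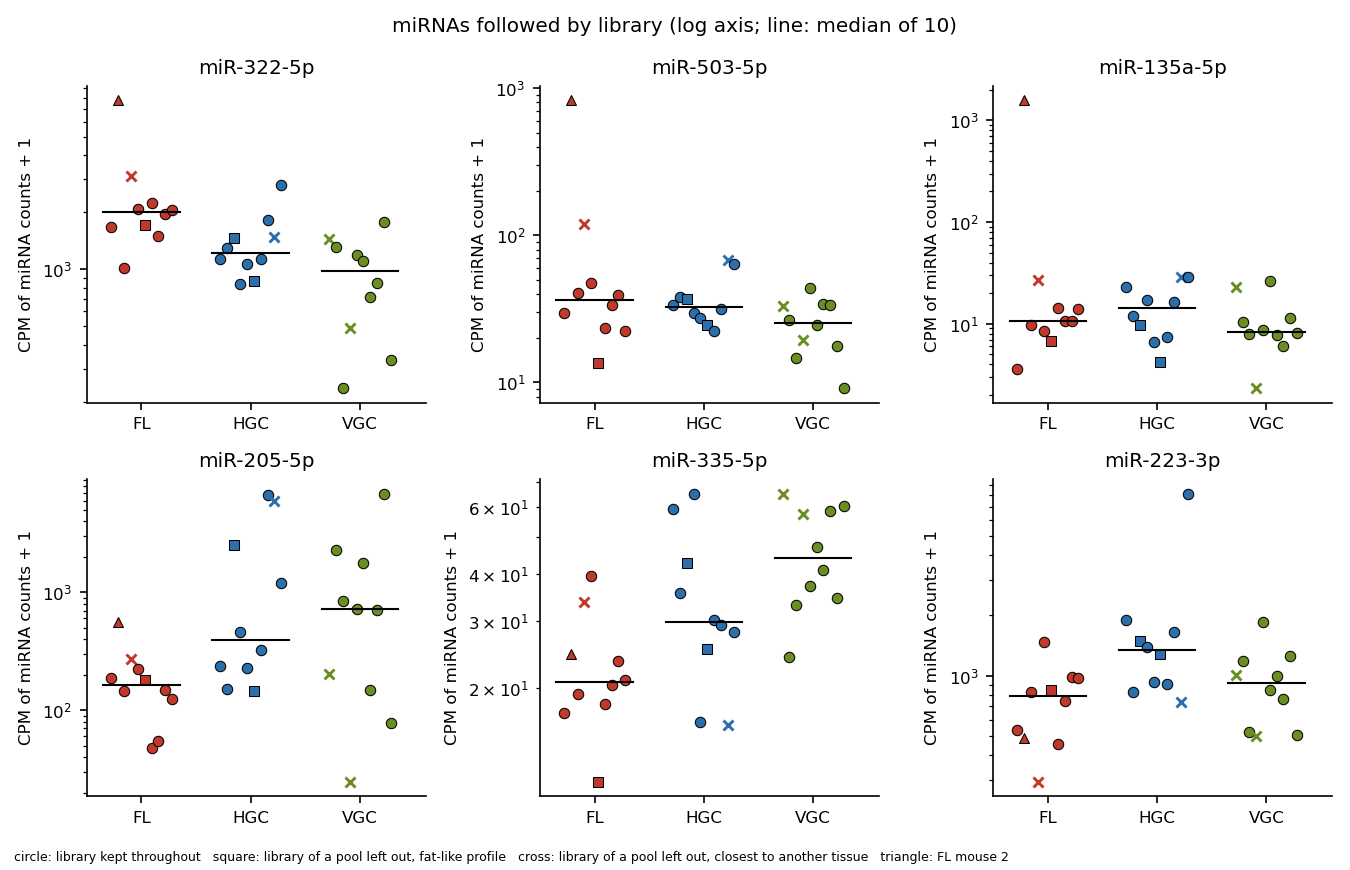
Levels of 6 miRNAs in each GAT library of live return, as CPM of miRNA counts plus 1 on a log axis, by arm, with a line at each median and with symbols for the left-out pools and for FL mouse 2. miR-503-5p and miR-135a-5p are set apart by FL mouse 2 (826 and 1570 CPM), whereas for miR-322-5p the FL median (2008 CPM) lies above the highest VGC library (1778 CPM).

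Scaled within the class, long noncoding RNAs gave the steadiest difference between FL and HGC among the classes tested one library out at a time. Of 1869 tested, 97 (5.19%) were called in FL vs. HGC within the class, 10 higher and 87 lower in FL, and the count stayed between 86 and 109 when any library was left out. Without the 11 pools 91 of the 97 were called again in the same direction. DESeq2 called 130, 36 higher and 94 lower. Gm26682 ran from 8.98 through 31.5 to 63.3 CPM of lncRNA counts in FL, from 32.1 through 112 to 353 in HGC, and from 6.52 through 31.9 to 82.5 in VGC. Most HGC mice lay above most FL and VGC mice, FL and VGC had nearly the same median, and the fold change in FL vs. HGC was -1.65 ± 0.32 (edgeR, adjusted p = 0.00536). 4930509E16Rik (-1.59), 2410017I17Rik (-1.47), Gm48410 (-1.61) and Gm33280 (-1.42) likewise had their highest median in HGC, each lowest among HGC mice in mouse 14 and highest in mouse 16. These transcripts moved in parallel across libraries, and reads that map to several of them could be shared. In HGC vs. VGC edgeR called 0 lncRNAs within the class, with 333 at an unadjusted p under 0.05, and DESeq2 called 173. Against VGC 0 were called by either tool, with 240 and 218 at an unadjusted p under 0.05.

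The called lncRNAs held 6.22% of the class. The most abundant one, Lncppara, stood at a median of 20.7% of lncRNA counts in FL, 14.5% in HGC and 10.1% in VGC, and was not called in FL vs. HGC (0.76, adjusted p = 0.303). Gm15298, the highest fold change at 4.30, rested on FL mouse 2 (81.4 CPM of lncRNA counts, against 5.25 in the next FL library) and dropped to 1.28 (adjusted p = 0.0926) without the 5 libraries. Against all classes Gm15298 was the only lncRNA called with all libraries, while 127 were called without the 11 pools and 211 without the 4 libraries nearest to another organ.

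Among piRNA entries, sequences annotated from germ cells that in other tissues often match fragments of other RNAs, 24 of 457 (5.25%) were called in FL vs. HGC within the class, 5 higher and 19 lower, and they held 20.8% of piRNA counts. oocyte_piRNA3732 alone made up from 3.54% through 8.02% to 11.9% of the class in FL, from 5.67% through 12.5% to 17.1% in HGC and from 1.53% through 14.5% to 17.9% in VGC. FL mice lay low against both control arms, with overlap, at -1.62 ± 0.44 vs. HGC (edgeR, adjusted p = 0.0342) and -1.71 vs. VGC (0.0642). oocyte_piRNA2739 had -1.95 ± 0.43 (0.0155), and oocyte_piRNA2547 and piR-119947 were called higher, both at 1.64. Without the pools 23 of the 24 were called again, among 81 calls, yet leaving out FL mouse 1, 5 or 16 alone left 0 and leaving out HGC mouse 16 left 3. The split was 5 higher to 19 lower with TMM, 19 to 1 on class totals and 29 to 4 against all classes. In FL vs. VGC edgeR called 0, with 68 at an unadjusted p under 0.05, DESeq2 called 15, and edgeR called 17 without the pools and 26 without the 4 libraries.

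rRNA entries, fragments of ribosomal genes and of the many 5S-like copies named n-R5s, moved with the class on the all-class scale, where 169 of 179 (94.4%) were called higher in FL vs. HGC and 0 in FL vs. VGC, with 4 of the latter at an unadjusted p under 0.05. That 0 did not hold without the libraries that stood apart, among them VGC mouse 1 with an rRNA share of 44.9%: edgeR called 155 in FL vs. VGC without the 11 pools and 158 without the 4 libraries nearest to another organ. Within the class 31 were called higher in FL vs. HGC (17.3%) and 59 in FL vs. VGC (33.0%), with none lower in either. They were minor entries, holding 0.440% and 2.80% of rRNA counts, and 21 of the 126 n-R5s copies and 10 of the 53 other entries were among those called in FL vs. HGC. n-R5s162 ran from 38.6 through 167 to 433 CPM of rRNA counts in FL, from 27.6 through 70.4 to 96.8 in HGC and from 37.2 through 66.6 to 208 in VGC. FL mice filled the upper end, at 1.23 ± 0.29 vs. HGC (edgeR, adjusted p = 0.00833) and 1.01 ± 0.29 vs. VGC (0.0126). The calls were fragile: DESeq2 made 72 calls of its own in FL vs. HGC, 27 higher and 45 lower, and leaving out FL mouse 11 left 0 in both comparisons.

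snRNA entries were called higher in FL vs. HGC on the all-class scale (583 of 684, 85.2%, and 8 lower, 86.4% in all). Within the class 15 were called (2.19%), 1 higher (0.146%) and 14 lower (2.05%), and the spliceosomal U1 variants Rnu1b6, Gm26232 and Gm24830 had identical counts in every library. Rnu1b6 ran from 481 through 771 to 1245 CPM of snRNA counts in FL and from 725 through 962 to 16972 in HGC, where mouse 16 stood far above the next library (1615), at -2.28 ± 0.59 (edgeR, adjusted p = 0.0418). Without HGC mouse 16 its fold change was -0.29 and 0 snRNAs were called. The calls were fragile to other libraries too: Rnu1b6 was called in 17 of the 30 runs without 1 library. Several FL and VGC mice left out singly also gave 0 calls. In FL vs. VGC 0 were called by edgeR or DESeq2, with 33 and 50 at an unadjusted p under 0.05. snoRNA entries, guides of RNA modification, had 0 calls within the class in FL vs. HGC by edgeR (94 at an unadjusted p under 0.05) and 47 by DESeq2, and 0 in FL vs. VGC by either, with 34 and 37 at an unadjusted p under 0.05. Snord42a, with a median of 4.00% of the class in FL and 3.64% in HGC, had a fold change of -0.01. Against all classes 25 of 631 (3.96%) were called higher in FL vs. HGC, 297 in either direction without the pools and 341 without the 4 libraries.

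Whether the response differed between ages depended on the test and the libraries. For miRNAs 0 were called in FL vs. HGC at 3 months, at 8 months or for the difference (36, 69 and 57 at an unadjusted p under 0.05, edgeR), and in FL vs. VGC 8 were called at 3 months (1.37%), 0 at 8 months and 0 for the difference (103 at an unadjusted p under 0.05). The 8 went to 0 without the pools. For the difference between ages DESeq2 called 4 miRNAs vs. HGC and 28 vs. VGC, and edgeR called 14 vs. VGC without the 4 libraries and 0 without the pools. tRNA anticodons, tested by age after the data had been seen, gave 7 of 51 calls (13.7%) in FL vs. HGC at 8 months and 0 at 3 months, where 7 had an unadjusted p under 0.05, and 0 for the difference between ages. Without the pools the calls were 13 at 8 months and 11 at 3 months. In FL vs. VGC edgeR made 2 calls at 3 months (3.92%) and 0 at 8 months (9 at an unadjusted p under 0.05), or 4 and 6 without the pools, and 0 for the difference (5 at an unadjusted p under 0.05). Lys-TTT stood at -1.73 at 8 months and -0.94 at 3 months, with a difference of -0.79 (adjusted p = 0.675, edgeR).

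Between live return and TERM, the FL vs. HGC difference itself differed for some features, while most differences of this kind vs. VGC were lost without the 11 pools or the libraries nearest to another organ. Fitted over LAR and TERM together, 11 of 666 miRNAs (1.65%) were called for LAR minus TERM in FL vs. HGC, 2 higher and 9 lower, and 22 (3.30%) in FL vs. VGC, with 0 miRNAs called in TERM alone in either comparison (30 and 44 at an unadjusted p under 0.05, and 0 by DESeq2). Without the pools these counts for LAR minus TERM were 6 and 2, and without the libraries nearest to another organ 8 and 6. Among tRNAs, also tested after the data had been seen, Lys-TTT had -1.46 in LAR and -0.20 in TERM in FL vs. HGC (LAR minus TERM -1.25 ± 0.37, edgeR, adjusted p = 0.0230), and -1.01 and 0.40 in FL vs. VGC (-1.41 ± 0.37, 0.0107). Without the pools the LAR minus TERM value of Lys-TTT was -0.98 vs. HGC (adjusted p = 0.0546) and -0.97 vs. VGC (0.0718), and without the libraries nearest to another organ -1.14 (0.0347) and -0.95 (0.169). The 4 anticodons called vs. VGC became 0 in both settings. Leu-TAA had 1.10 in LAR and -0.10 in TERM vs. HGC (difference 1.19, 0.0228) and His-GTG -0.93 and 0.25 (-1.18, 0.0228). LAR tissue was frozen at dissection and TERM carcasses were frozen whole and thawed, so timing, return and handling cannot be told apart in this difference.

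By the study's own kind of threshold, a ratio of geometric medians above 1 on the log2 scale with a Cohen's d above 0.5 in size, 140 of 586 miRNAs (23.9%) passed in FL vs. HGC as CPM of all classes, all higher, and 111 (18.9%) in FL vs. VGC. As CPM of miRNA counts 20 (3.41%) passed in FL vs. HGC, 1 higher and 19 lower, and 23 (3.92%) in FL vs. VGC. With a pseudocount of 10 the counts were 70 and 54 as CPM of all classes and 11 and 10 as CPM of miRNA counts.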

How the data were processed

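Per the labels and the study's methods, total RNA of GAT was sequenced as single-end small RNA libraries and mapped with miRMaster against GRCm39 and miRBase. The authors deposited raw counts per feature for 6 classes and expected counts for miRNA, whose estimated count per miRNA came from the authors' pipeline and in which 0.657% of values had a fraction and which were rounded here. All samples were grouped by their labels. Columns of other tissues in the other 6 classes (3756) were not used. Those of miRNA served only the tissue profiles and the miR-196 levels by tissue. Tests used R 4.3.3, edgeR 4.0.16, limma 3.58.1, DESeq2 1.42.0 and Python 3.11.15. The filter was 5 counts in 10 libraries and the threshold an adjusted p of 0.05. Fold changes are edgeR's log2 fold changes, and CPM are per 1000000 counts of the class unless stated. Alternatives were DESeq2, voom, a Wilcoxon test, other scalings and filters, terms for age, plate and mouse number, and leaving out libraries. Named are the tissue markers, the 10 most abundant miRNAs, at most the 12 called features of smallest adjusted p per class and comparison (for miRNA with fewer than 10 calls, up to 10 by unadjusted p), at most 3 abundant members per list, tRNA anticodons, and abundant features of classes without calls. The miRNAs called only without 5 libraries, the miRNAs of FL mouse 2 and the abundant lncRNA Lncppara were chosen after their values were seen. The members, lists and 11 left-out pools were chosen with earlier results of these data known. Tested on simulated counts for FL vs. HGC, 90.3% of miRNAs changed 4-fold and 16.4% of those changed 2-fold were called. Same-numbered mice of different arms are different animals of the same age. Within age, the correlations of their deviations ran from -0.28 to 0.29 (FL and HGC), from -0.32 to 0.64 (FL and VGC) and from -0.44 to 0.07 (HGC and VGC), so the numbers do not pair them.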

Additional observations from a re-analysis of the deposited data

Results flagged for a closer look

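Of 51 sets of 10 libraries (an arm and a measure), 30 had a highest or lowest library set apart from the other 9 by a gap large against the range (Dixon's test at 95%). Chance flags about 1 in 20 sets of normally distributed values, but CPM are skewed and several of these miRNAs were taken up because a library stood out in them, so the count of 30 is not to be read against that rate. FL mouse 2 was the highest FL library for the snoRNA share (31.7%), miR-322-5p (7783 CPM), miR-503-5p (826 CPM), miR-135a-5p (1570 CPM), miR-34c-5p (738 CPM) and miR-205-5p (558 CPM), and the lowest for miR-196a-5p (1150 CPM) and miR-217-5p (0.386 CPM). FL mouse 1 had the highest rRNA share (20.6%), FL mouse 4, nearest to kidney, the highest miR-196b-5p (9634 CPM), and FL mouse 5 the highest miR-122-5p (8077 CPM). HGC mouse 14, nearest to thymus, had the highest HGC shares of miRNA (6.97%), rRNA (13.6%), snoRNA (11.8%) and lncRNA (8.30%), the lowest of tRNA (48.0%), and the highest miR-34c-5p (133 CPM) and miR-217-5p (384 CPM). HGC mouse 2 was highest for miR-196a-5p (7391 CPM), mouse 16 for miR-322-5p (2777 CPM) and mouse 5 for miR-122-5p (183492 CPM). VGC mouse 4, nearest to liver, had the highest VGC shares of miRNA (13.7%), snRNA (18.1%), snoRNA (24.6%) and lncRNA (12.4%) and the highest miR-122-5p (350290 CPM). VGC mouse 1, nearest to pancreas, had the highest rRNA share (44.9%) and miR-217-5p (16550 CPM), VGC mouse 14 the highest miR-205-5p (6850 CPM) and VGC mouse 3 the highest miR-1a-3p (25230 CPM).

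The flight difference also differed between live return and TERM by a test of the difference itself (edgeR): for 11 miRNAs of 666 in FL vs. HGC and 22 in FL vs. VGC, and for 3 tRNA anticodons of 51 (His-GTG, Leu-TAA and Lys-TTT) and 4 (Gln-CTG, Gln-TTG, Lys-CTT and Lys-TTT). The differences vs. VGC were mostly lost when libraries were left out: the 22 miRNAs became 2 without the 11 pools and 6 without the libraries nearest to another organ, and the 4 anticodons became 0 in both. Those vs. HGC became 6 and 8 miRNAs and 7 and 7 anticodons.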

How the results depend on the processing

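At this depth and with 10 mice an arm, most 2-fold changes of miRNAs went uncalled on simulated counts. In what follows, counts are features called by edgeR unless stated, "pools" means without the 11 pools, "profile" without the 4 libraries nearest to another tissue, and "5 libraries" without those and FL mouse 2. The profile and 5 library settings, with or without HGC mouse 16 or VGC mouse 3 besides, distinct rows, class totals of classes other than miRNA, the tRNA tests by age and in LAR and TERM, and leaving out each library for classes other than miRNA were chosen after seeing the data. Where a setting moved a result, the cause was not tested.

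Within the class, FL vs. HGC, miRNA calls went from 0 to 4 with DESeq2 and 8 without the 5 libraries. tRNA calls went from 16 to 25 (pools), 27 (DESeq2), 28 (profile) and 26 (5 libraries). rRNA calls went from 31 to 76 (pools), 72 (DESeq2), 10 (no filter), 60 (profile), 99 (5 libraries) and 74 (class totals). snRNA calls went from 15 to 0 (DESeq2), 0 (5 libraries) and 9 (class totals). snoRNA calls went from 0 to 47 (DESeq2), 1 (profile) and 1 (5 libraries). piRNA calls went from 24 to 81 (pools), 113 (profile) and 93 (5 libraries). For FL vs. VGC, miRNA calls went from 30 to 0 (pools), 17 (DESeq2), 6 (profile), 14 (5 libraries), 14 (these and HGC mouse 16), 0 (these and VGC mouse 3), 1 (age as a term), 0 (plate as a term), 3 (voom with sample weights) and 1 (Wilcoxon). tRNA calls went from 0 to 6 (pools), 10 (profile) and 8 (5 libraries), rRNA calls from 59 to 0 (no filter) and 97 (profile), snRNA and snoRNA calls from 0 to 1 and 2 (5 libraries), piRNA calls from 0 to 17 (pools), 15 (DESeq2), 31 (no filter), 26 (profile) and 19 (5 libraries), and lncRNA calls from 0 to 26 (no filter).

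Against all classes, FL vs. HGC, miRNA calls went from 160 to 359 (pools), 408 (profile), 348 (5 libraries), 20 (distinct rows) and 276 (Wilcoxon), tRNA from 14 to 24 (5 libraries) and 8 (distinct rows), snRNA from 591 to 379 (distinct rows), snoRNA from 25 to 297 (pools), 341 (profile), 211 (5 libraries) and 0 (distinct rows), piRNA from 33 to 131, 167, 170 and 14, and lncRNA from 1 to 127, 211, 155 and 90, in the same order. For FL vs. VGC, miRNA calls went from 43 to 84 (profile), and from 0 calls in the other classes the pools, profile and 5 library settings gave 3, 6 and 5 (tRNA), 155, 158 and 160 (rRNA) and 25, 34 and 28 (piRNA), and the pools and profile settings 7 and 1 (snRNA).

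Same-numbered mice shared only a number and an age. With the mouse number as a block, calls within the class were 10 (tRNA), 0 (snRNA) and 0 (piRNA) in FL vs. HGC and 0 (miRNA) in FL vs. VGC, and against all classes 91 (miRNA), 3 (tRNA), 47 (snoRNA) and 0 (lncRNA) in FL vs. HGC and 1 (miRNA), 3 (snRNA) and 102 (lncRNA) in FL vs. VGC. The other counts of calls stayed within 1.5 times under the block.

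By age, miRNA calls in FL vs. HGC were 1 at 3 months with DESeq2, and at 8 months 277 (total of 7 classes), 24 (DESeq2) and 10 (profile), with 4 and 4 for the difference (total, DESeq2). In FL vs. VGC the 8 calls at 3 months became 0 (pools, total and profile), those at 8 months 10 (total), 21 (DESeq2) and 4 (profile), and the difference 28 (DESeq2) and 14 (profile). tRNA calls at 8 and 3 months in FL vs. HGC became 13 and 11 (pools) and 19 and 12 (profile), and in FL vs. VGC 6 and 4 (pools) and 13 and 4 (profile). In the fit of LAR and TERM, miRNA calls in LAR in FL vs. HGC went from 11 to 26 (pools), 292 (total) and 41 (profile) and for LAR minus TERM from 11 to 6 (pools) and 42 (total). In FL vs. VGC they went from 52 to 13, 122 and 21 in LAR, from 0 to 1, 14 and 1 in TERM, and from 22 to 2 (pools), 13 (DESeq2) and 6 (profile) for the difference. tRNA calls for LAR minus TERM went from 3 to 7 (pools) and 7 (profile) vs. HGC and from 4 to 0 and 0 vs. VGC, where LAR went from 5 to 14 and 10 and TERM from 1 to 0 and 0.

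The FL minus HGC difference in shares lost significance at 3 and at 8 months alone for miRNA (2.37 and 4.26 points), tRNA (-20.4 and -22.9), rRNA (5.62 and 5.87), snRNA (3.66 and 5.15) and snoRNA (7.02 and 5.46), and with identical rows once for rRNA (2.49), snRNA (3.59) and snoRNA (9.14). It became significant for lncRNA at 1.97 (pools), 2.03 (profile) and 1.54 (5 libraries), and FL minus VGC for miRNA at 2.31, 2.30 and 2.17. The piRNA difference from HGC, -0.0847, turned to 0.153 at 3 months and 0.00693 (5 libraries). FL minus VGC turned for rRNA, from -0.653 to 4.41 (pools), 0.29 (log2 share), 1.86 (8 months), 4.35 (profile) and 4.33 (5 libraries), and for snoRNA to -0.199 at 8 months. Of counts without tRNA, the piRNA difference from HGC lost significance at -1.01 (log2), -5.88 (3 months), -12.1 (8 months) and -11.4 (identical rows once), while FL minus VGC turned for rRNA to 3.33 (pools), 3.12 (8 months), 3.52 (profile) and 5.13 (5 libraries), for snoRNA to -1.91 (8 months) and -1.25 (5 libraries), and for lncRNA to 0.034 (log2) and 0.0859 (3 months). Passing the rule of fold and effect size were 70 and 54 miRNAs with a pseudocount of 10 on the CPM of all classes (FL vs. HGC, FL vs. VGC), and on the CPM of miRNA counts 31 (pools) and 11 (pseudocount 10) in FL vs. HGC and 10 (pseudocount 10) and 37 (profile) in FL vs. VGC.

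Of named features, the sign turned for miR-135a-5p without the 5 libraries (-0.29 vs. HGC, -0.10 vs. VGC), miR-217-5p vs. VGC (0.019 without the 5 libraries, 0.64 with voom) and miR-216a-5p vs. VGC (0.58 pools, 0.48 profile, 0.37 without the 5 libraries). Without the 5 libraries and HGC mouse 16 it turned for miR-135a-5p (-0.056 vs. HGC, -0.052 vs. VGC), miR-2137 vs. HGC (0.10), miR-217-5p vs. VGC (0.070) and miR-216a-5p vs. VGC (0.45), and without the 5 libraries and VGC mouse 3 for miR-135a-5p vs. HGC (-0.27), miR-217-5p vs. VGC (0.0054) and miR-216a-5p vs. VGC (0.56). Leaving out each library in turn, the lowest and highest counts of calls within the class were 0 and 1 (miRNA), 7 and 23 (tRNA), 0 and 96 (rRNA), 0 and 21 (snRNA), 0 and 2 (snoRNA) and 0 and 43 (piRNA) in FL vs. HGC, and 7 and 34 (miRNA), 0 and 6 (tRNA), 0 and 83 (rRNA), 0 and 11 (piRNA) and 0 and 8 (lncRNA) in FL vs. VGC. The libraries whose removal moved a count by over 1.5 times were, for miRNA vs. VGC (30), FL mice 1, 2, 5, 11, 12, 13, 14 and 16 (7 to 19) and VGC mice 1, 2 and 3 (10 to 17). For tRNA vs. HGC (16) they were FL mouse 12 and HGC mice 4, 11, 12 and 13 (7 to 10). For rRNA vs. HGC (31) they were FL mice 1, 11 and 12 and HGC mice 3, 4 and 14 (0 to 19), and FL mice 4 and 16, HGC mice 5 and 16 and VGC mouse 1 (58 to 96). For rRNA vs. VGC (59) they were FL mice 2, 11, 12 and 13, HGC mice 11 and 14 and VGC mouse 2 (0 each), and FL mouse 1 and VGC mice 4, 11 and 16 (32 to 36). For snRNA vs. HGC (15) the count was 0 without any of FL mice 2, 3, 4, 5, 11, 12, 13 and 16, HGC mouse 16 or VGC mice 3, 12, 13 and 14. For piRNA vs. HGC (24) they were FL mice 1, 4, 5, 11, 13 and 16 and HGC mice 4, 11, 12, 13 and 16 (0 to 15), and HGC mouse 14 (43). By age the lowest and highest counts were 0 and 14 at 8 months and 0 and 1 for the difference vs. HGC, and 0 and 11, 0 and 1, and 0 and 9 at 3 months, 8 months and for the difference vs. VGC for miRNA, and for tRNA 4 and 18 at 8 months, 0 and 2 at 3 months and 0 and 1 for the difference vs. HGC, and 0 and 10, 0 and 3, and 0 and 2 vs. VGC. Fold changes ranged from -0.22 to 3.79 for miR-135a-5p, from -3.76 to 0.043 for miR-2137 and from -4.04 to 0.27 for oocyte_piRNA3210 vs. HGC, and from -7.87 to 0.27 for miR-216a-5p vs. VGC.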

Other observations

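The following groups of miRNAs had 0 members called within the class in FL vs. HGC. Counts on the second scale stand beside 27.3% of all 586 miRNAs. The Hox-locus list, with miR-10 and miR-615 beside the miR-196 pair, had medians of 0.09 within the class and 1.69 against all classes (3 of 5 called higher on the latter scale). Among vessel-wall miRNAs, smooth muscle miR-143 and miR-145 had medians of -0.14 and 1.12 (0 of 2 called), endothelial miR-126 had -0.02 and 1.19 (1 of 2) and vascular miR-221 and miR-222 had -0.31 and 1.09 (0 of 2). miR-210, induced by low oxygen, stood at 0.21 and 1.58 and was called on the second scale. The miR-30 family had medians of -0.06 and 1.4 (2 of 5 called), insulin-linked miR-103 and miR-107 had 0.26 and 1.44 (1 of 2), and the miR-99, miR-100 and miR-125 families had -0.10 and 1.21 (1 of 5). The median over all 586 miRNAs was 0.01 and 1.18.

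Marker lists of blood and of other organs that the report did not describe were as follows, their calls in FL vs. VGC standing beside 5.12% of all miRNAs (3.75% lower, 1.37% higher). Red cell markers had a median of -0.002 in FL vs. HGC and -0.36 in FL vs. VGC within the class, with summed medians of 18503 CPM in FL, 25543 CPM in HGC and 29911 CPM in VGC, and 0 called. Blood lineage markers had -0.92 and -1.32 (2 of 4 called lower in FL vs. VGC). Brain markers had -0.75 and -0.22 (1 of 6 called lower in FL vs. VGC), kidney and gut epithelium markers 0.22 and -2.06 (0 of 3 called), and epithelial markers 1.11 and -0.70 (1 of 6 called lower in FL vs. VGC). Ovary and oviduct markers had 1.39 and 2.08 (1 of 3 tested members called higher in FL vs. VGC), with summed levels of up to 2245 CPM in FL, set by mouse 2, and a median of 67.0 CPM. Liver and pancreas markers had medians of -4.04 and -3.16 in FL vs. HGC, with 0 called, and -6.67 and -7.08 in FL vs. VGC, with 2 and 4 called lower. Without the 11 pools 0 members of these lists were called within the class.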
